A study of Homo sapiens with 3 samples.

Results

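A set of 10 genes of TGF-beta and activin signalling were followed in 3 populations of the 1205Lu melanoma line, a human line from a lung metastasis that the WM793 line formed as a xenograft. They were the ligand genes TGFB1, TGFB2, TGFB3 and INHBA, the activin inhibitor FST, the receptor genes TGFBR1 and TGFBR2, the transducer SMAD3, the nuclear inhibitor SKIL and the TGF-beta induced matrix gene TGFBI. The 10 genes were taken by their symbol on the array and comprise 13 probes in 31 spots, of 30968 gene names, 41000 probes and 43376 spots in all. The original monolayer (OM) had been kept for 14 days in RPMI-1640 with 10% FCS. The melanoma bodies (MB), attached spheroids taken off by physical detachment, had been kept for 14 days in hESC medium, which is DMEM F-12 with 20% Knock Out serum replacement. The new monolayer (NM) had 14 days as bodies in hESC medium and then 10 days in RPMI-1640 with 10% FCS, and bodies that remained were removed before RNA was made. Each population was measured on 1 Agilent 1-color array with Cy3-labeled RNA, and the 3 arrays lay on 1 slide.

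In this pathway, a secreted ligand dimer brings together type II and type I receptor kinases. The type I receptor then phosphorylates receptor SMADs such as SMAD3, which join SMAD4 and act on genes in the nucleus. TGFB1, TGFB2 and TGFB3 encode the TGF-beta ligands, and INHBA encodes the subunit of activin A. Follistatin, the product of FST, binds activin and keeps it from its receptors. SnoN, the product of SKIL, holds SMAD complexes inactive at DNA, and its gene is itself a target of the pathway. Normal melanocytes are growth-inhibited by TGF-beta, whereas melanoma cells commonly make the ligands and have lost much of that growth response.

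The probes of TGFB1, INHBA and FST lie in coding sequence, so the part of the protein each one reads can be shown. All were 60 bases long, their positions are given in the hg17 build as the authors' files have them, and cysteine codons are in capitals, in the reading frame of the known protein. The TGFB1 probe (NM_000660) aligned to the minus strand at chr19:46529982-46539642, a stretch of 9661 bases, and so crosses at least 1 intron in the sequence of the mature ligand. The INHBA probe (NM_002192, minus strand, chr7:41502486-41502545) covers the last codons of the gene with the stop codon. The FST probe (NM_013409, plus strand, chr5:52816594-52816653) lies in the cysteine-rich part of follistatin. The capitals mark 3 cysteine codons in the TGFB1 probe, 2 in that of INHBA and 3 in that of FST.
TGFB1: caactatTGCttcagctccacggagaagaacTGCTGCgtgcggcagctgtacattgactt
INHBA: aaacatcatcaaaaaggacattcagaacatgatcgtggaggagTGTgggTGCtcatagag
FST: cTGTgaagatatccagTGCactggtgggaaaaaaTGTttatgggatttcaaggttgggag

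The signal of a probe is the processed signal in arbitrary units (a.u.) as deposited, and folds were taken after scaling the arrays to the averaged signal of 3 housekeeping genes (GAPDH, ACTB, HSP90AA1), which gave a divisor of 0.978 for MB and 0.877 for NM relative to OM. With 1 array per population there was no replicate culture and no test across samples was possible, so a gene was called by size alone, at 2-fold or more with the brighter array well above background and over 100 a.u. The spread that could be measured is that of replicate spots. The technical SD of a single-spot log2 ratio of MB to OM was taken among 264 probes printed in 10 spots, grouped by signal. It was 0.30 where the dimmer array read 20 to 100 a.u. (20 probes) and 0.07 from 100 to 1000 a.u. (55 probes). From 1000 to 10000 a.u. it was 0.04 (95 probes). This spread leaves out all variation between cultures. The medium, the growth form and the way of harvest changed together between MB and the monolayers and cannot be told apart. A change in the RNA of each cell and a change in the share of cells with that RNA cannot be told apart either.

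Markers of the line were examined on the same arrays. Of 9 melanocyte lineage markers, 7 were well above background in OM and in MB and 6 in NM, with a summed signal of 50956, 88258 and 31457 a.u. in the order OM, MB, NM. The pigment enzyme genes TYR and TYRP1 were not well above background on any array. Of the 6 fibroblast markers, COL1A1, COL1A2, COL3A1 and LUM did not pass background on any of the arrays, and the list summed to 6796, 12234 and 5949 a.u. The leukocyte marker PTPRC, the endothelial marker CDH5 and the epithelial markers CDH1 and TACSTD1 did not pass it either. Other markers of these lists did pass. On each array 2 of the 6 fibroblast and 4 of the 5 leukocyte markers were well above background. In the order OM, MB, NM, so were 2, 2 and 1 of the endothelial and 3, 3 and 2 of the epithelial markers. The 4 endothelial markers summed to 229, 501 and 137 a.u., and the summed signal ran from 343 to 496 a.u. for the 5 leukocyte markers and from 6350 to 16143 a.u. for the 5 epithelial markers. The summed signal of the lineage, fibroblast and endothelial lists was thus highest on MB, as were those of TGFB1, FST, TGFBR1, TGFBR2, SKIL and TGFBI below, and the part of one in the other was not tested.

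TGFB1 was higher in MB than in either monolayer, SMAD3 was lower in MB than in either, and NM stood close to OM in both genes. In MB over OM, 9 of the 10 genes had a signal that could be compared. TGFB1 and TGFBI were 2-fold or more higher in MB, where 6.76% of 17813 genes were called higher, and SMAD3 was 2-fold or more lower, where 4.22% were called lower. In MB over NM, TGFB1 and SKIL were 2-fold or more higher (13.7% of 17768 genes), and TGFB2, INHBA and SMAD3 were 2-fold or more lower (10.4%). In NM over OM, TGFB2 was called higher (4.36% of 17557 genes) and SKIL lower (5.98%). At 5-fold or more in either direction, 0 of 9 genes were called in MB over OM against 1.73% of all genes. At that size TGFB2 was called in MB over NM (4.55% of all genes) and in NM over OM (1.76%). In a list of 10, a single gene already makes a larger share than most of these percentages, so the counts describe the genes and say nothing particular to the list.

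**Figure D1:**
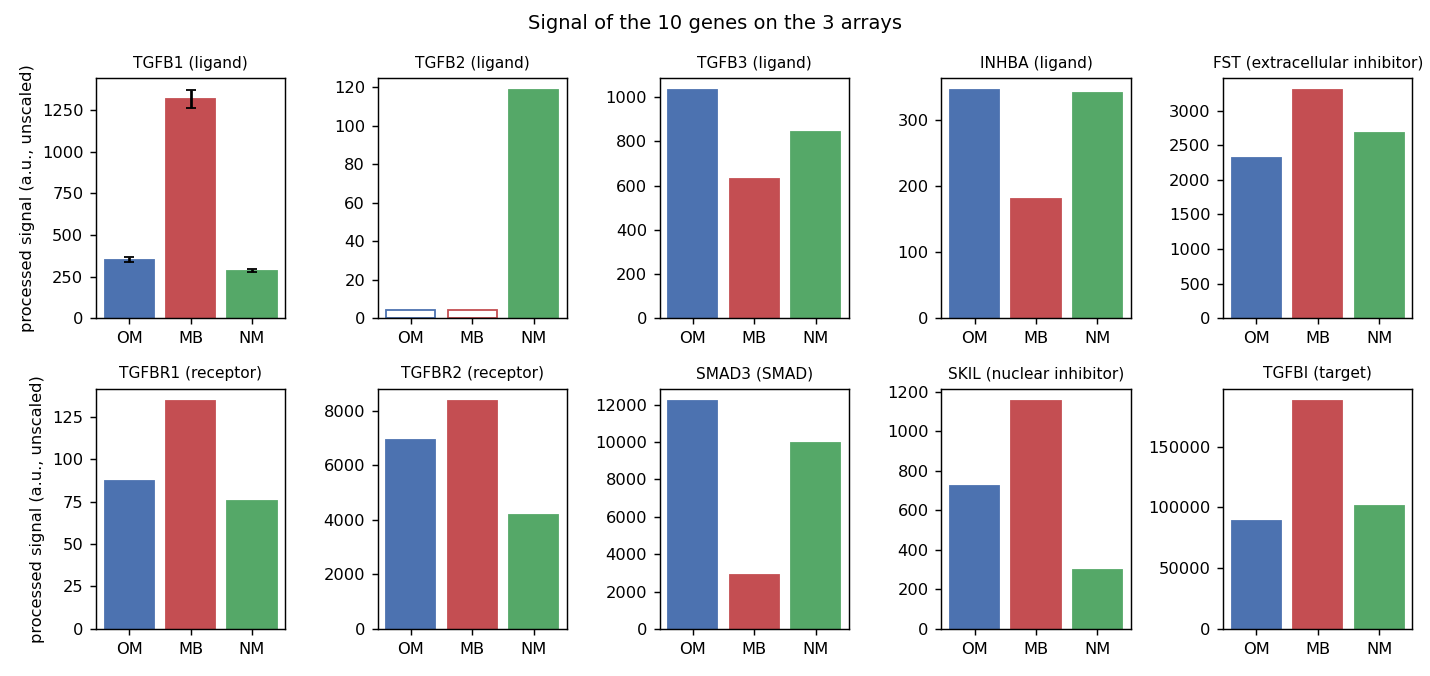
Unscaled processed signal (a.u., linear axis from 0, separate for each gene) of the 10 genes on the OM, MB and NM arrays, each by its brightest probe. Open bars are not well above background, and error bars (TGFB1) are the SD over 10 spots. TGFB1 reads 1318 a.u. in MB against 352 and 284 a.u. in OM and NM, SMAD3 has the opposite profile, and TGFB2 is above background on NM alone.

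The median log2 ratio of the comparable genes was 0.55 in MB over OM (6 higher and 3 lower), 0.41 in MB over NM (6 higher and 4 lower) and -0.11 in NM over OM (4 higher and 5 lower). Over all genes the medians were 0.09, 0.04 and 0.08, and 57.7%, 52.0% and 56.9% of genes were higher. TGFB2, whose fold is a bound, stayed the most extreme gene at it (-2.77 in MB over NM and 2.69 in NM over OM). Placing it there could therefore not move the list medians. Genes of the list went both ways in each comparison, so each role is described on its own.

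Among the ligands, TGFB1 was the gene that rose in MB. Its probe was printed in 10 spots, which gave 352 ± 16.4 a.u. on OM (SD, n = 10 spots), 1318 ± 53.2 a.u. on MB and 284 ± 9.28 a.u. on NM. The spots ran from 311 to 369 a.u. on OM, from 1199.7 to 1391 a.u. on MB and from 272 to 305 a.u. on NM. The MB spots did not overlap with those of either monolayer, whereas the highest NM spot fell just under the lowest OM spot before scaling. After scaling, TGFB1 in MB exceeded OM by 3.83-fold (3.59 to 4.04 by spot) and NM by 4.16-fold (3.96 to 4.39 by spot). Between the monolayers, OM was 1.09-fold above NM, and the spots ranged from 1.00 to 1.16. The order of TGFB1 was thus MB, OM and NM, with a gap between the last 2 that was small beside that to MB.

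**Figure D2:**
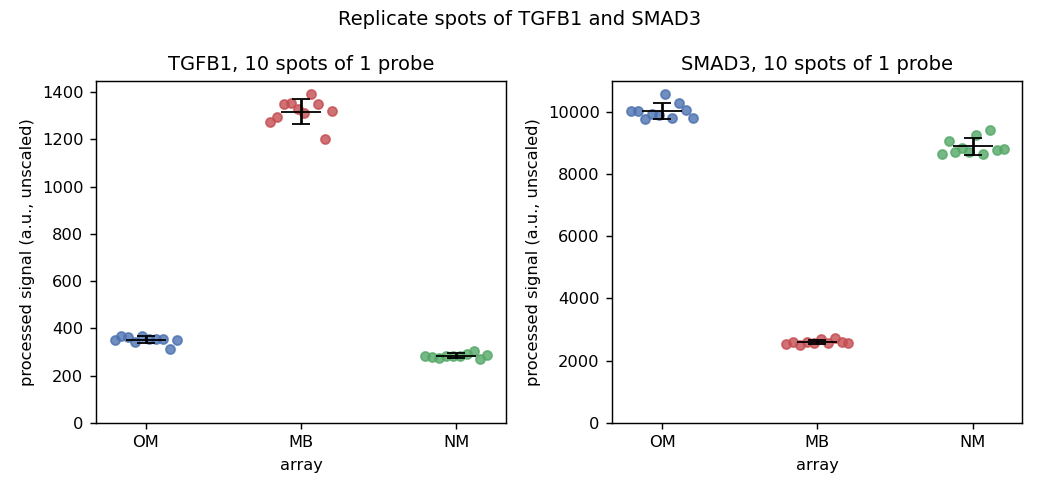
Unscaled processed signal (a.u.) of the 10 spots of the TGFB1 probe (left) and of the SMAD3 probe printed in 10 spots (right) on the OM, MB and NM arrays. Points are spots, and the black bar and whiskers are their mean and SD. The MB spots of TGFB1 lie at 1199.7 to 1391 a.u. above all spots of the monolayers, and those of SMAD3 at 2502 to 2716 a.u. below all of them.

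TGFB2 was not well above background on OM and MB, with readings of 4.40 and 4.08 a.u., and read 119 a.u. on NM. The gene encodes a ligand that needs a co-receptor, betaglycan, for efficient binding. Against the lowest signals that counted as well above background (20.9 a.u. on OM and 19.4 a.u. on MB), NM was at least 6.47-fold above OM and at least 6.82-fold above MB. The value rests on 1 spot (chr1:215003179-215003238, plus strand), whose 65 pixels on NM had a mean of 187 and a median of 181 before background removal, and none of the 23 spots within 2 positions of it was above 100 a.u. on NM alone. The fold depended on how background was removed, since the log2 difference of NM over OM was 1.57 with normexp correction (offset 50) and 1.80 with no subtraction, past 2-fold and short of 5-fold. On the whole array, 62 spots were above 100 a.u. on NM while not well above background on the other arrays, against 84 such spots on MB and 42 on OM.

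TGFB3 was lower in MB. Its brighter probe read 1033 a.u. on OM, 631 a.u. on MB and 842 a.u. on NM, and MB was 1.60-fold below OM and 1.49-fold below NM. The second TGFB3 probe, which spans an intron (chr14:75499576-75501735, minus strand), read 60.5, 34.1 and 61.0 a.u. on OM, MB and NM, so that OM was 1.74-fold and NM 1.99-fold above MB. Neither probe reached 2-fold. The probes differed in sign in NM over OM, at -0.11 with a technical SD of 0.07 for the brighter probe and 0.20 with an SD of 0.24 for the dimmer probe on the log2 scale, so no order of the monolayers is given.

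INHBA, the activin A subunit gene whose probe sequence is printed above, followed the same course as TGFB3. It read 346 a.u. on OM, 180.4 a.u. on MB and 341 a.u. on NM. MB was 1.87-fold below OM, which missed the 2-fold step, and 2.11-fold below NM, which passed it. On the log2 scale the MB over OM difference of -0.91 passed the step under scaling to the 75th percentile (-1.10), to spike-in probes (-1.22) and under quantile normalization (-1.05). The MB over NM difference of -1.08 missed it without scaling (-0.92), with normexp background correction (-0.89) and without background subtraction (-0.92). Between the monolayers INHBA differed by 0.17 on the log2 scale after scaling and by -0.02 without it, so they have no settled order.

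FST, the activin inhibitor, read 2311 a.u. on OM, 3299 a.u. on MB and 2678 a.u. on NM. FST exceeded OM by 1.46-fold in MB and by 1.32-fold in NM, each past the technical SD of 0.04 on the log2 scale and short of 2-fold. The log2 ratio of MB over OM fell from 0.55 to 0.23 with spike-in scaling, and that of NM over OM from 0.40 to 0.21 without scaling. MB and NM differed by 0.14 on the log2 scale, which turned to -0.03 with spike-in scaling. In MB the activin subunit gene INHBA therefore read lower and the inhibitor gene FST higher than in OM, both by less than 2-fold.

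The receptor genes read higher in MB, again by less than 2-fold. TGFBR1, the type I receptor gene, read 87.3 a.u. on OM, 134.5 a.u. on MB and 75.4 a.u. on NM. MB exceeded OM by 1.58-fold and NM by 1.60-fold, with technical SDs of 0.30 and 0.28 on the log2 scale at these low signals. OM and NM differed by 0.02 on the log2 scale, less than the technical SD of 0.24. Since neither monolayer passed 100 a.u., TGFBR1 was not counted in NM over OM.

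TGFBR2, the type II receptor gene, read 6934 a.u. on OM, 8376 a.u. on MB and 4172 a.u. on NM by its brighter probe. MB was 1.80-fold above NM, and NM was 1.46-fold below OM. MB was 1.24-fold above OM, a log2 difference of 0.31 that fell to -0.01 with spike-in scaling. The MB over NM difference of 0.85 reached 1.01 without scaling. A second TGFBR2 probe across an intron (chr3:30690717-30704913, plus strand) read 127.4, 147 and 91.3 a.u. and gave the same order on OM, MB and NM, with log2 differences of 0.24 for MB over OM, 0.53 for MB over NM and -0.29 for NM over OM.

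SMAD3, a receptor SMAD of the TGF-beta and activin branches, had the largest fall from OM to MB of the 9 genes compared. Its brighter probe (chr15:65270577-65270637, plus strand) read 12213.5 a.u. on OM, 2905 a.u. on MB and 9928 a.u. on NM. MB was 4.11-fold below OM and 3.81-fold below NM. The other probe (NM_005902, chr15:65274445-65274504, plus strand) was printed in 10 spots, which read 10025 ± 250 a.u. on OM (SD, n = 10 spots), 2593 ± 64.1 a.u. on MB and 8887 ± 267 a.u. on NM. By spot, OM was 3.71 to 3.86 times MB, and NM was 3.74 to 3.87 times MB, with no overlap between the MB spots and those of the monolayers.

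The monolayers had nearly the same SMAD3 signal after scaling. By the 10-spot probe, NM over OM was 0.02 on the log2 scale, within the SD of 0.03 between spots, and by the brighter probe it was -0.11. The value of the brighter probe depended on the scaling and was -0.30 without scaling and -0.25 with spike-in scaling. SMAD3 thus separated MB from both monolayers in the opposite direction to TGFB1.

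The 3 genes whose profile over the 3 arrays lay closest to that of SMAD3, among 15870 genes above 100 a.u. on each, were HMOX1, PAPSS2 and NTN4. The distance was taken on the log2 ratios of MB and of NM to OM and was 0.14 for HMOX1, 0.15 for PAPSS2 and 0.20 for NTN4. HMOX1 encodes heme oxygenase, PAPSS2 an enzyme that makes the sulfate donor, and NTN4 a secreted netrin. Their log2 ratios of MB to OM were -1.89, -2.09 and -2.19 in that order, against -2.04 for SMAD3.

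SKIL, the gene of the nuclear inhibitor SnoN, differed most between the monolayers among the 9 genes well above background on all 3 arrays. It read 726 a.u. on OM, 1157 a.u. on MB and 296 a.u. on NM. MB was 3.50-fold above NM and 1.63-fold above OM, and OM was 2.15-fold above NM. The log2 difference of NM over OM was -1.10 and moved to -0.92 with normexp background correction and -0.96 without background subtraction, short of 2-fold. The order MB, OM and NM held under all 12 alternatives, and the gaps were larger than the technical SDs of 0.07 and 0.06. Other filters, averaging of probes and the value table could not change the ratios of this gene, which has 1 probe.

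TGFBI, a secreted matrix protein gene named for its induction by TGF-beta, was bright on every array without saturation. It read 88614 a.u. on OM, 187918 a.u. on MB and 100936 a.u. on NM. The MB signal exceeded that of OM by 2.17-fold and that of NM by 1.67-fold, and NM exceeded OM by 1.30-fold. The log2 difference of MB over OM was 1.12 with a technical SD of 0.03 and fell below 2-fold with scaling to the 75th percentile (0.93) or to spike-in probes (0.80). MB over NM, 0.74 on the log2 scale, passed 2-fold under quantile normalization (1.20).

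**Figure D3:**
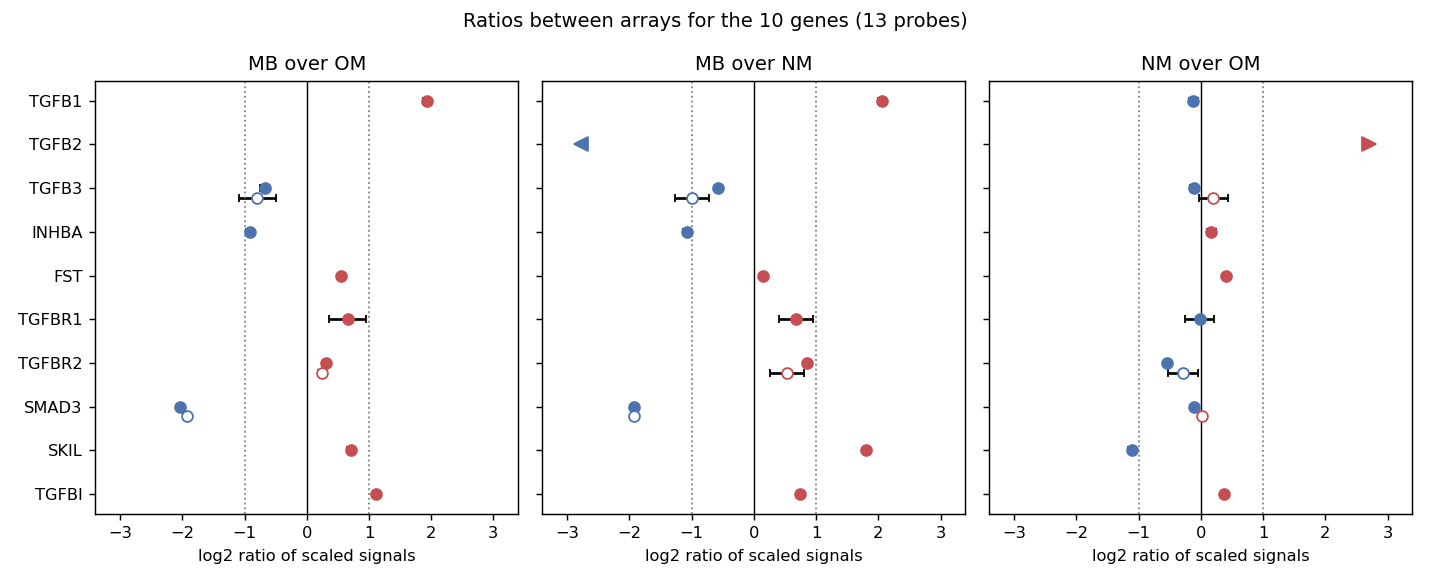
Log2 ratio of scaled signals for the 10 genes in MB over OM, MB over NM and NM over OM. Red marks ratios above 0 and blue those below, and TGFB2 has no ratio in MB over OM. Filled points are the brightest probe of each gene and open points a second probe. Whiskers are 1 technical SD of a single spot, and dotted lines 2-fold. Where the dimmer array did not pass background, a triangle gives the ratio to the lowest signal that did so on that array. With normexp correction or no background subtraction the TGFB2 ratios were smaller than the triangles. TGFB1 lies at 1.94 and 2.06 and SMAD3 at -2.04 and -1.93 in the MB comparisons, and both lie near 0 in NM over OM.

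A list of 77 other genes of the pathway was read on the same arrays, all of which had a probe and 65 of which were well above background on at least 1 array. Of 60 that could be compared in MB over OM, 9 had risen in MB by 2-fold or more and 4 had fallen, with a median log2 ratio of 0.25 against 0.09 over all genes, of which 6.76% were called higher and 4.22% lower. In MB over NM, 8 of 61 were higher and 6 lower, close to the 13.7% and 10.4% of all genes, with a median of 0.22 against 0.04. In NM over OM, 5 of 58 were higher and 3 lower, beside 4.36% and 5.98% of all genes, with a median of 0.14 against 0.08. The count higher in MB over OM fell from 9 to 5 with scaling to the 75th percentile and to 4 with spike-in scaling, where the median was -0.06, and that in MB over NM fell from 8 to 5 with either of these and under quantile normalization. The count higher in NM over OM fell from 5 to 3 with each of these and without scaling.

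Other ligand and extracellular regulator genes went different ways. INHBB, the subunit gene of activin B, read 68.0 a.u. on OM, 352 a.u. on MB and 223 a.u. on NM. It exceeded OM by 5.29-fold in MB and by 3.74-fold in NM, so NM lay closer to MB than to OM. At the low OM signals of INHBB and of BGN below, the technical SD on the log2 scale was 0.30 in MB over OM and 0.24 in NM over OM. INHBE, another activin subunit gene, was well above background on NM (136 a.u.) and OM (26.9 a.u.) and not on MB, and NM was 5.75-fold above OM and at least 7.82-fold above MB.

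BGN, a matrix proteoglycan that binds TGF-beta, rose from 75.1 a.u. on OM to 366 a.u. on MB and 244 a.u. on NM, 4.99-fold and 3.71-fold above OM. FMOD, a related proteoglycan, was well above background on MB alone (125 a.u.). Against the lowest signals that passed background on OM and NM, MB was at least 6.13-fold above OM and at least 3.86-fold above NM. The bounds of FMOD and INHBE rest on 1 spot each, and other ways of removing background were not tried for them. FMOD is in the study's own list of genes raised in MB, chosen on these arrays, and is no independent support. CHRD, an antagonist of the related BMP ligands, was 2.44-fold lower in MB than NM. ITGB5, an integrin subunit of a receptor that can bind latent TGF-beta, was 3.51-fold higher in MB than NM. ITGAV, also an integrin subunit gene of this role, went the other way and was 2.09-fold lower in MB than NM.

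Of 8 other receptor genes, 3 passed 2-fold upward from OM to MB and 0 downward, beside 6.76% and 4.22% of all genes, with a median log2 ratio of 0.75 against 0.09 over all genes. The 3 were ACVR1C (4.03-fold), ACVR2A (2.24-fold) and ACVR1 (2.00-fold), all genes of activin or related receptors. The median stayed above 0 under each scaling, at 0.44 with spike-in scaling, although the count fell to 1 with spike-in and 75th percentile scaling and to 2 under the other scalings. ACVR1C, the type I receptor gene ALK7, read 63.8 a.u. on OM, 251 a.u. on MB and 96.0 a.u. on NM. ACVR2A read 93.3, 205 and 94.9 a.u. in that order. At the low OM signals of ACVR1C and ACVR2A the technical SD of MB over OM was 0.30 on the log2 scale. ACVR2A, at 1.17 on that scale, lay within 1 SD of 2-fold. TGFBR3, the gene of betaglycan, was 2.33-fold higher in MB than NM. Among 16 other SMADs and regulators, SMAD7, an inhibitory SMAD that the pathway induces, exceeded OM by 2.07-fold in MB. This call was lost with scaling to the 75th percentile, with spike-in scaling and under quantile normalization. Of the 16, 1 was called higher and 0 lower in each comparison. Of all genes, 6.76% were called higher and 4.22% lower in MB over OM, 13.7% and 10.4% in MB over NM, and 4.36% and 5.98% in NM over OM. With so few genes, these counts say nothing particular to the role.

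Genes known as targets went both ways. Of 19 compared in MB over OM, TAGLN (2.45-fold) and TSC22D1 (2.26-fold) were higher in MB, and CTGF (4.08-fold), GADD45B (3.29-fold), TPM1 (2.61-fold) and LOX (2.17-fold) were lower, beside 6.76% of all genes called higher and 4.22% lower. The count of higher genes fell from 2 to 1 with 75th percentile scaling and to 0 with spike-in scaling, and the median log2 ratio of 0.17 turned to -0.02 with scaling to the 75th percentile, -0.01 under quantile normalization and -0.14 with spike-in scaling. SNAI1, the gene of an epithelial-mesenchymal transition factor, exceeded OM by 1.54-fold and NM by 2.61-fold in MB.

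The lower targets did not share 1 profile. CTGF, a matricellular growth factor gene, read 27142 a.u. on OM, 6499 a.u. on MB and 9700.3 a.u. on NM, and NM stayed 2.45-fold below OM. GADD45B, a stress-response gene, read 7944, 2358.5 and 13380.3 a.u. on OM, MB and NM, so NM was 6.32-fold above MB. LOX, a collagen cross-linking enzyme gene, read 1235 ± 40.5 a.u. on OM (SD, n = 10 spots), 558 ± 12.6 a.u. on MB (SD, n = 9 spots) and 2017 ± 65.7 a.u. on NM (SD, n = 10 spots), so that NM was 4.03-fold above MB. CTGF, GADD45B, TPM1 and LOX were all, like SMAD3, lower in MB than in both monolayers. GADD45B and LOX were so by 2-fold or more against each, whereas NM exceeded MB by 1.66-fold in CTGF and 1.47-fold in TPM1. In NM over OM, GADD45B and LOX lay at 0.94 and 0.90 on the log2 scale, against -0.11 for the brighter SMAD3 probe.

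**Figure D4:**
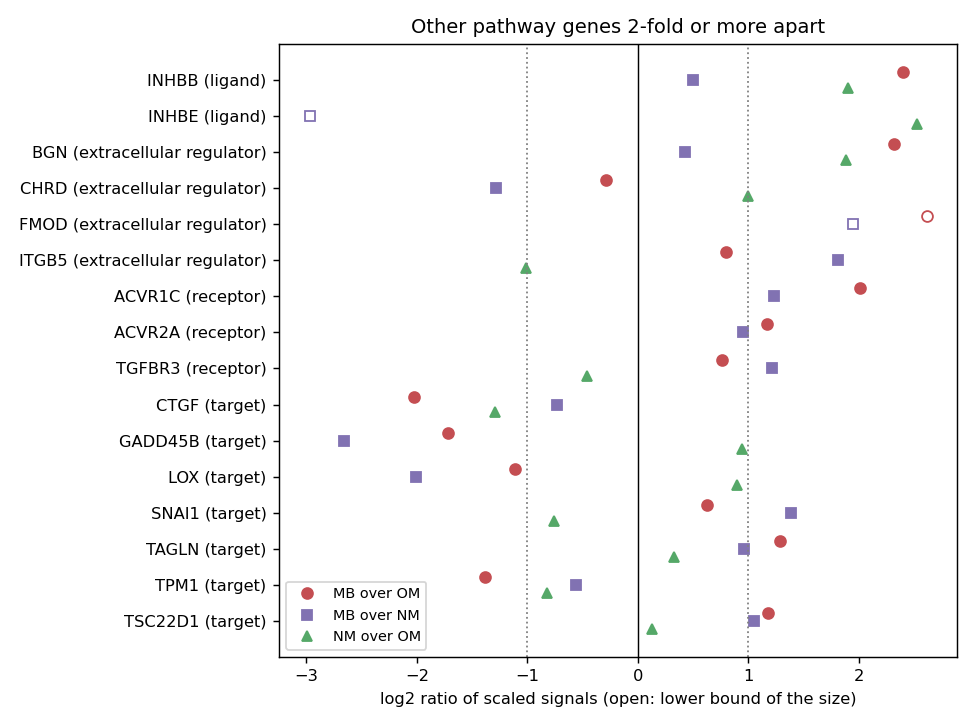
Log2 ratio of scaled signals for 16 other pathway genes that were 2-fold or more apart in at least 1 comparison, by role. Circles are MB over OM, squares MB over NM and triangles NM over OM. Open symbols, where the dimmer array did not pass background, give the ratio to the lowest signal that did so on that array. Dotted lines mark 2-fold. INHBB and BGN lie past 2-fold in MB over OM and in NM over OM, while GADD45B and LOX lie below -1 in both MB comparisons.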

How the data were processed

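Total RNA of OM, MB and NM was labeled with Cy3 and hybridized to 1 Agilent 4x44K array each. The authors deposited the spot intensity given by Feature Extraction (9.5.3.1), the mean pixel signal less a fitted background surface, divided by a second surface, with low values replaced (checked on 100% of spots with no replaced value, within 1%). The deposited value table holds the same intensity (130128 of 130128 values within 0.1%). Control and outlier spots were left out, replicate spots were averaged, and arrays were scaled to 3 housekeeping genes (GAPDH, ACTB, HSP90AA1), after the study's methods. The brightest probe stood for a gene. A gene was called at 2-fold, or the study's 5-fold, with the brighter array well above background and over 100 a.u. Precision is limited by the 3 arrays. With 1 array per population no test was run.

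The 10 genes, the pathway list and the markers were chosen with earlier results of these data known. Of the other pathway genes past 2-fold (24), the 16 with the largest log2 ratio of MB to OM or NM were to be named. ACVR1, SMAD7 and ITGAV were named after their values were seen. Like profiles were sought for the gene with the largest MB to OM ratio. Alternatives were other scalings, normexp (offset 50, limma 3.58.1, R 4.3.3), no background subtraction, other filters, outliers kept, all probes averaged and the value table. The calling was tested on simulated data in which only brighter genes were changed and the noise was the same at all signals. That test does not bear on the calls of dim genes. Python 3.11.15, numpy 2.4.6, pandas 2.3.3 and matplotlib 3.10.9 were used. Probe positions are those of the files, and an hg17 annotation was not used here. Of the pathway genes, 1 was left out and is not reported here.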

Additional observations from a re-analysis of the deposited data

How the results depend on the processing

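No paired analysis was possible because each group is a lone array, and for the same reason no replicate could be left out. Of 28 ratios (9 or 10 genes in 3 comparisons), 10 were 2-fold or more, and none of these changed sign under the 12 alternatives (11 for TGFB2, which has no value where both arrays must be above background). Of these 10, TGFBI in MB over OM, INHBA in MB over NM and SKIL in NM over OM lost 2-fold under some, and 4 of the 18 smaller ratios changed sign. The filters and the value table could not change the value of a ratio. Averaging probes could not where a gene has 1 probe. TGFB1 kept a log2 ratio of 1.62 to 1.94 in MB over OM and SMAD3 of -2.35 to -1.98. The number of genes 2-fold apart in NM over OM, 2, fell to 1 when both arrays had to be well above background, with normexp and with no background subtraction. In the first, TGFB2 dropped out by construction, and in the others SKIL missed 2-fold. The TGFB2 log2 ratio in NM over OM was 1.57 with normexp and 1.80 with no background subtraction, against 4.94 from the deposited signals. Other counts over the 10 genes stayed within 1.5 times. Scaling moved the median log2 ratio of all genes in MB over OM by -0.31 (spike-in), -0.19 (75th percentile) and -0.11 (quantile). It moved MB over NM by 0.16 (no scaling), -0.17 (spike-in) and -0.11 (75th percentile), and NM over OM by -0.19 (no scaling) and -0.14 (spike-in). For the other pathway genes, scalings added after seeing the data changed the number higher in MB over OM from 9 to 5 (75th percentile) and 4 (spike-in), in MB over NM from 8 to 5 (75th percentile, spike-in and quantile), and in NM over OM from 5 to 3 (75th percentile, no scaling, spike-in and quantile). Other ways of removing background were not tried for these genes, of which INHBB, BGN, ACVR1C and ACVR2A were dim on OM. INHBE and FMOD were dim too, and their bounds rest on the lowest signals that passed background.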
